A study of Homo sapiens with 14 samples.

Results

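SUM159 cells come from a triple-negative breast carcinoma, and PF-06873600 is an inhibitor of the cell cycle kinases CDK2, CDK4 and CDK6. This account covers 69 protein-coding genes that were all but silent in untreated SUM159 cells and were read after 7 days with 0.5 μM PF-06873600. They were selected on the read counts themselves. A gene was taken when it had 3 or fewer reads in both untreated SUM159 libraries and 40 or more in both treated libraries. Of 19895 protein-coding genes, 6741 were silent by this measure without the drug and 77 of those (1.14%) passed the second limit. Genes whose symbols begin with MUC, MMP, COL, CXCL, CCL or IL and a digit were set aside, which removed 8 (CCL2, IL2RG, IL33, IL36B, IL36RN, IL4I1, MMP9 and MMP13) and left the 69 members. No protein-coding gene made the opposite move, from 40 or more reads in both untreated libraries to 3 or fewer in both treated ones (0 genes). Because the choice rests on the SUM159 counts, the SUM159 values of the members are given as a description and no test of them is made. The A549 libraries took no part in the choice.

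The study sequenced messenger RNA of 2 established lines, with 2 libraries a group and 14 in all. SUM159 was left untreated (UT) or given PF-06873600 (PF), in a medium with insulin and hydrocortisone. A549, a lung cancer line grown in another medium without those hormones, was left untreated (UT), given 2 μM palbociclib for 10 days (PD), 0.5 μM indisulam for 10 days (IN), both drugs for 10 days (P+I), or 0.5 μM PF-06873600 for 7 days (PF). Palbociclib inhibits CDK4 and CDK6, and indisulam is a molecular glue that sends the splicing factor RBM39 to degradation. The study used these drugs to bring cancer cells to senescence, a lasting arrest of division. The submitters describe the duplicates as technical, so p-values here measure only the spread between these libraries, and line and medium cannot be told apart. Between 13060374 and 21149256 reads a library were counted on genes. In SUM159 they were 16582253 and 15967162 without the drug and 17106664 and 21149256 with it, so the limit of 40 reads was easier to reach in the deeper treated libraries. With counts scaled to the mean SUM159 total, 46 genes passed. That scaling lowered the counts of the largest treated library but also raised the untreated counts. Members with an untreated count exactly at the lower limit then no longer counted as silent. The smaller number is therefore not a measure of the depth of the treated libraries alone. The mesenchymal marker VIM had 63971 to 76348 reads in the SUM159 libraries, the epithelial marker EPCAM 6 to 14, and the hormone receptor genes ESR1 and PGR at most 14 and 0.

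Many genes of differentiated tissues lie unread in a cancer line. Secreted alarm proteins of neutrophils and liver, class II molecules that show peptides to T cells, and adhesion proteins of nerve cells belong to such programs. Arrested and senescent cells are known to turn on genes of inflammation and of secretion, through factors such as NF-kB and C/EBP.

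After PF-06873600 the members in sum reached 387 and 394 counts per 1000000 reads counted on genes in the library (CPM) against 4.46 and 5.32 in untreated SUM159. In untreated cells all 69 together held 74 and 85 reads, and 17 of them had no read in either library. With the drug the mean level per gene ran from 2.17 to 40.6 CPM with a median of 4.03, and 21 genes reached 5 or more. Levels were therefore low, and the 3 highest genes, PDZK1IP1, S100A9 and CX3CL1, held 21.7% of all member reads. The treated libraries agreed closely in level. The ratio of replicate 2 to replicate 1 in CPM had a median of 0.989 and ran from 0.607 for PAPPA2 to 1.40 for SPADH. As CPM divided by exon length in kilobases (RPKM, the scale on which genes can be compared), the highest were S100A9 at 45.0, PDZK1IP1 at 28.4, S100A8 at 13.4, HLA-DRA at 8.68 and IBSP at 7.57, and the lowest was NFASC at 0.102.

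**Figure D1:**
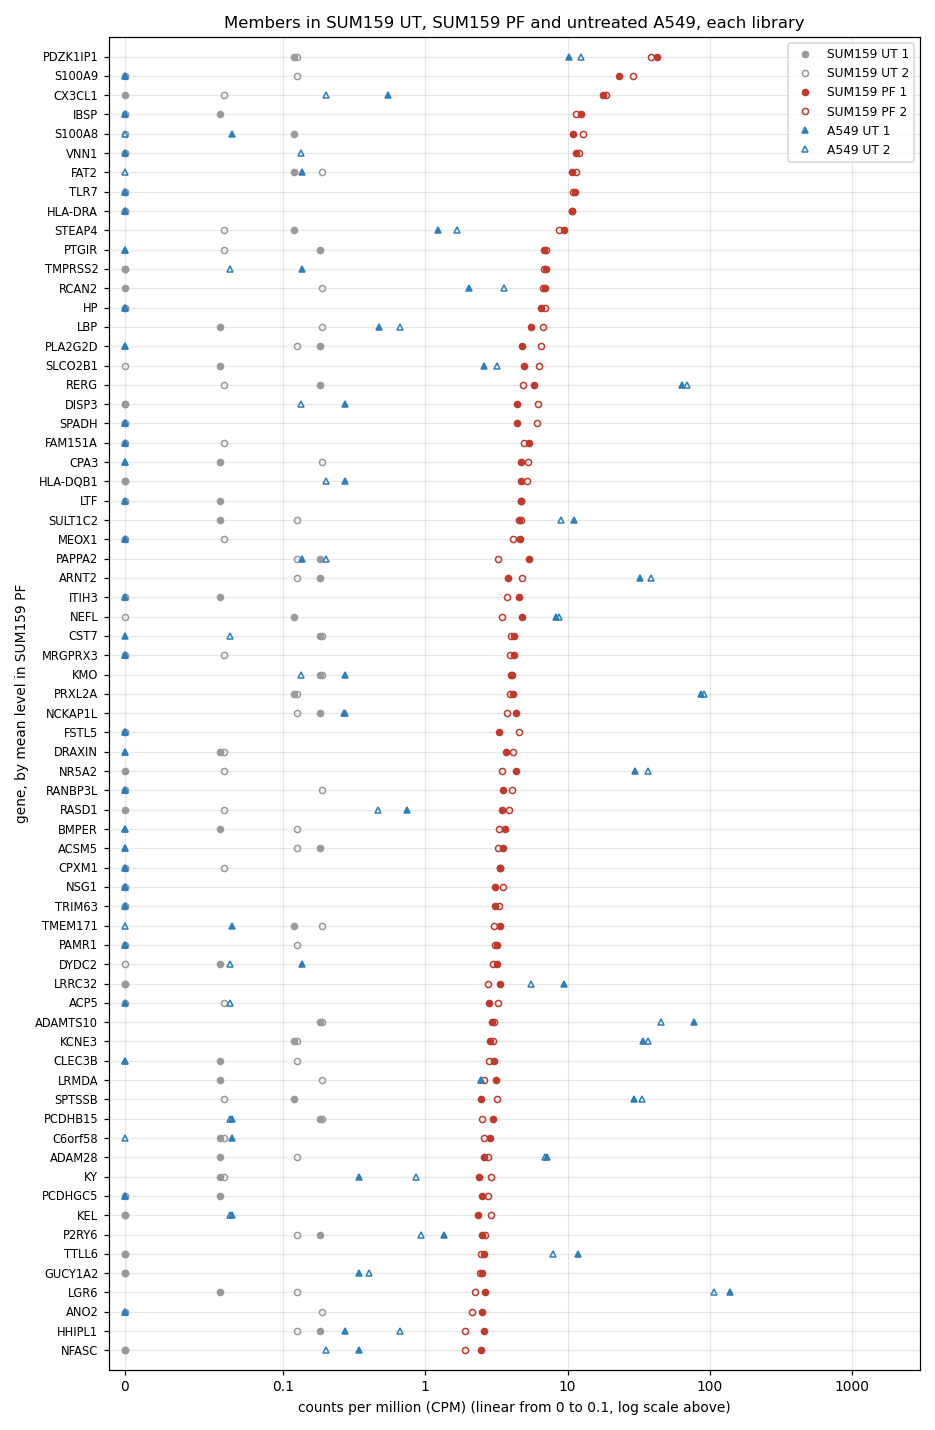
Level of 68 of the 69 genes in CPM (horizontal axis, linear from 0 to 0.1 and logarithmic above) in the libraries of untreated SUM159 (grey), PF-treated SUM159 (red) and untreated A549 (blue triangles), with replicate 1 filled and replicate 2 open. Genes are ordered by mean level in treated SUM159, from 2.17 for NFASC to 40.6 for PDZK1IP1, and some members such as LGR6 lie further right in untreated A549 than in treated SUM159.

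PDZK1IP1 (chr1:47183582-47191044 on hg38, minus strand), which encodes a small membrane protein of epithelia also called MAP17, was the highest member by reads. It had 2 and 2 reads in untreated SUM159 and 727 and 817 with the drug. The ratio of CPM was 328 with a counting interval of 128 to 1207 (95%, exact, counting error only).

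Genes of antimicrobial and plasma proteins formed a group of 7 members, with means in treated SUM159 from 4.17 to 25.8 CPM. S100A9 and S100A8 (chr1:153357854-153361023 and chr1:153390032-153391073) encode the subunits of calprotectin, the metal-binding alarm protein of neutrophils, and lie 29.0 kb apart. S100A9 went from 0 and 2 reads to 390 and 609. S100A8 went from 2 and 0 reads to 187 and 272. CX3CL1, a membrane-bound chemokine also called fractalkine, went from 0 and 1 to 303 and 397 reads. HP, the haemoglobin-binding plasma protein haptoglobin, had no read untreated and 112 and 147 with the drug. LBP, which carries bacterial lipopolysaccharide to its receptor, went from 1 and 3 to 94 and 142 reads. LTF, the iron-binding lactoferrin of milk and neutrophil granules, went from 1 and 0 to 81 and 99 reads, and ITIH3, a plasma inter-alpha-trypsin inhibitor chain, from 1 and 0 to 78 and 80.

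The 5 members among them that a list of acute-phase and antimicrobial genes holds (S100A9, S100A8, HP, LBP, LTF) were not alone. Of the 46 other genes of that list, 14 could be tested in SUM159 and all 14 were higher with the drug, at an adjusted p under 0.05 in edgeR's quasi-likelihood test, where 38.1% of the 15055 genes tested were higher and 35.6% lower. The largest changes were in SAA4, SAA2 and PI3. SAA2, a serum amyloid A gene, went from 41 and 40 to 5466 and 6840 reads, and PI3, the elastase inhibitor elafin, from 4 and 3 to 415 and 556, which left it outside the members by 1 read. These genes were thus higher as well, some from a level that was already above silence. Of the 14, 2 (SAA4 and LCN2) had 3 or fewer reads in both untreated libraries and passed the filter on low counts only through the treated ones, which fixed their direction. Of all genes tested, 417 were of this kind and all 417 were called higher. The other 12 were all higher, against 36.4% higher and 36.6% lower of the 14638 genes tested with more than 3 reads in an untreated library. Among these 12, PI3, ORM2 (12 and 9 reads untreated) and SLPI (9 and 14) also had too few untreated reads to pass without the treated libraries. This list and those used below were drawn up with earlier results of these data known, so the counts are a description. The remaining 32 genes of the list had too few reads to be tested.

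Genes of leukocytes and antigen presentation gave 10 members. HLA-DRA (chr6:32439878-32445046), the invariant alpha chain of HLA-DR, had no read in either untreated library and 185 and 228 with the drug, a level at least 117-fold higher against a floor of 3 reads over the untreated group. HLA-DQB1 (chr6:32659467-32668383) likewise had no read untreated and 81 and 110 with the drug. TLR7, a sensor of single-stranded RNA in endosomes, went from 0 and 0 to 194 and 231 reads. These 3 genes were without a read in untreated SUM159. CPA3, the carboxypeptidase of mast cells, had 1 and 3 reads untreated and 80 and 112 treated. CST7, a cystatin of cytotoxic lymphocytes, had 3 and 3 against 72 and 85, and NCKAP1L (HEM1), the leukocyte form of an actin-regulating WAVE complex subunit, 3 and 2 against 74 and 79. LRRC32, also called GARP, which tethers latent TGF-beta on regulatory T cells and platelets, had 0 and 0 against 57 and 58. The rest included ACP5, the tartrate-resistant phosphatase of osteoclasts and macrophages, and KEL, the endopeptidase that carries the Kell blood group. These 2 had at most 1 read in an untreated library and 40 to 69 in the treated ones.

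HLA-DRA and HLA-DQB1 belong to the class II system, in which the transactivator CIITA switches on the chain genes and the invariant chain CD74 guides the molecules to endosomes. Of the 20 other genes of the class II list, 12 could be tested in SUM159, of which 11 were higher and 0 lower with the drug (0 lower also at an unadjusted p under 0.05 and with DESeq2), against 38.1% and 35.6% of all genes tested. HLA-DRB1, HLA-DRB5 and HLA-DQA1 had the largest fitted changes, from 0 reads in each untreated library, and HLA-DRB1 reached 34 and 51. With HLA-DMB, these 3 passed the filter through the treated libraries alone, so their direction was fixed. Of the other 8 class II genes, 7 were higher and 0 lower. These were not all free of the filter, since HLA-DPB1, with 4 and 3 reads untreated, also passed through the treated libraries alone. HLA-DPA1 (6 and 11) and CIITA (10 and 7) likewise had too few untreated reads to pass without the treated libraries. The 7 are therefore given as a description. The DRB genes are close copies of each other, so the split of reads between them is uncertain. CIITA went from 10 and 7 to 147 and 163 reads, a log2 fold change of 3.94 ± 0.26 (SE). No p-value is given for CIITA, since the filter favoured its direction. CD74 went from 10 and 13 to 1478 and 1901 reads, a change of 6.95 ± 0.13 (adjusted p = 6.18e-15). CIITA and CD74, like HLA-DMA and HLA-DMB in the plot of class II genes, were chosen after their values were seen. In A549, by contrast, CIITA had 1 to 5 reads and CD74 0 or 1 in each of the 10 libraries.

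**Figure D2:**
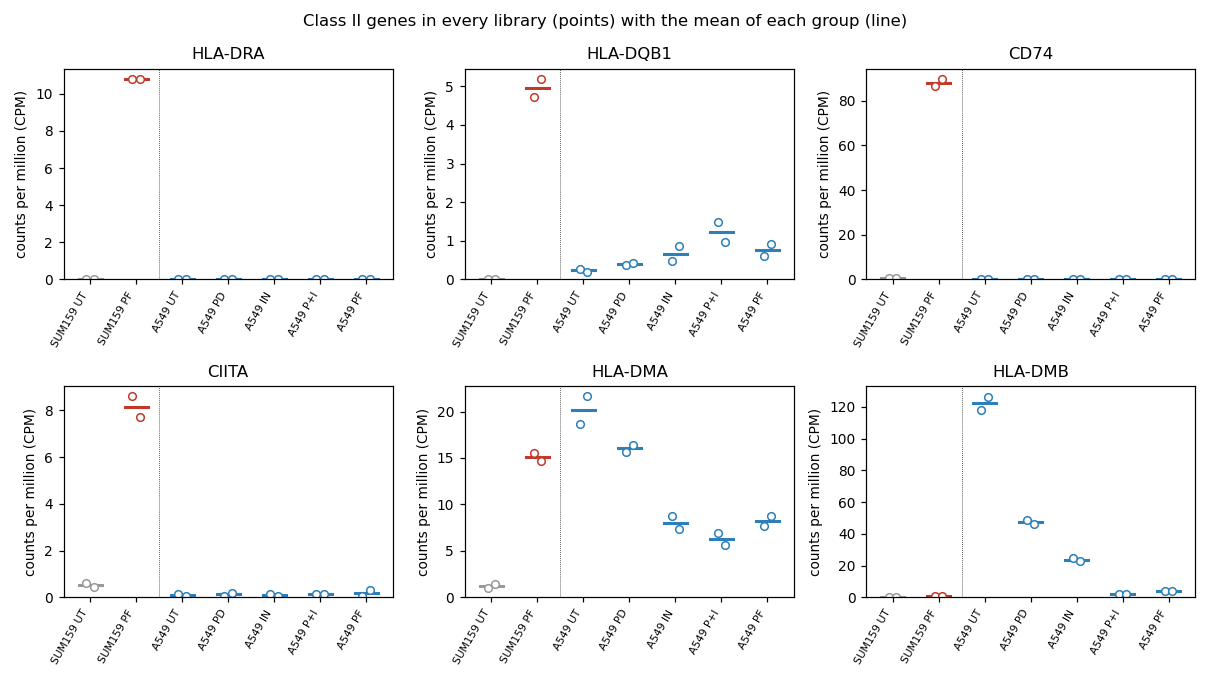
CPM (vertical axis, from 0, each panel with its own scale) of 6 class II genes in the 7 groups, with each library as an open point and the group mean as a line. HLA-DRA, HLA-DQB1, CD74 and CIITA rise from about 0 to between 4.7 and 90 in treated SUM159, while HLA-DMB stands at about 120 in untreated A549 and near 0 in PF-treated and P+I-treated A549.

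Several of these members are read mostly in blood cells, so the markers of such cells are given beside them. CD3E and TYROBP, which define T cells and myeloid or NK cells, had 0 reads in all 4 SUM159 libraries, and the myeloid factor gene SPI1 had 0 or 1. Of a list of 68 other haematopoietic genes, 35 and 34 were at 0 in the untreated libraries and 24 and 22 in the treated ones. The summed level of that list was 426 and 397 CPM untreated and 735 and 717 treated. Of its 26 genes that could be tested, 22 were higher with the drug and 0 lower (20 and 0 with DESeq2, and 0 lower at an unadjusted p under 0.05). For 6 of these (CD163, CD38, CD4, CD52, CD53 and FGR) the filter again fixed the direction, and of the other 20, 16 were higher and 0 lower. Some of the 20 also passed through the treated libraries alone, such as ALOX5AP (5 and 2 reads untreated) and ITGAX. ITGAX, CD38 and CD4 led the 22 higher genes, and ITGAX, the integrin CD11c, went from 5 and 5 to 383 and 468 reads. PTPRC, the pan-leukocyte gene CD45, already had 155 and 158 reads in untreated SUM159 and had 348 and 379 with the drug. Part of this list was thus read in SUM159 before treatment. The share of the members' reads that other cell types could have brought was not tested.

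Genes of extracellular matrix, proteases and secreted modulators numbered 12. IBSP, the bone sialoprotein of mineralised matrix, was the highest, with 1 and 0 reads untreated and 211 and 243 treated. TMPRSS2, a serine protease of the epithelial surface, went from 0 and 0 to 120 and 144. PAPPA2, a protease that cuts IGF-binding proteins, had 3 and 2 reads against 92 and 69. The rest of the group were CLEC3B (tetranectin), CPXM1, PAMR1, FSTL5, HHIPL1, the BMP regulator BMPER, the axon guidance protein gene DRAXIN, and the metalloprotease genes ADAMTS10 and ADAM28. Those 9 had 40 to 97 reads in the treated libraries and 0 to 3 in the untreated ones.

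Adhesion and neuronal genes gave 6 members. FAT2, a giant cadherin of squamous epithelium and cerebellum, went from 2 and 3 to 185 and 244 reads. NEFL, the light chain of neurofilaments, had 2 and 0 reads untreated and 82 and 73 treated. NFASC, the adhesion protein neurofascin of the axon initial segment and node, had 0 and 0 against 42 and 40. The other 3, PCDHB15, PCDHGC5 and the endosomal protein gene NSG1, had 43 to 75 reads with the drug. PCDHGC5 shares its last exons with the other genes of the gamma protocadherin cluster, so reads there cannot be assigned to it with certainty.

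Receptors, channels and membrane carriers gave 10 members including PDZK1IP1. STEAP4, a metalloreductase of fat cells and inflamed tissue, went from 2 and 1 to 162 and 184 reads. PTGIR, the prostacyclin receptor, had 3 and 1 against 117 and 150. SLCO2B1, an uptake carrier of organic anions, had 1 and 0 against 84 and 133. The receptors of this group were PTGIR, the UDP receptor P2RY6, MRGPRX3 and the R-spondin receptor LGR6, and the channel genes were KCNE3, a potassium channel subunit, and ANO2, a chloride channel of olfactory neurons. DISP3, a sterol-sensing membrane protein, had 0 and 0 reads untreated and 76 and 131 treated. From a list of 702 G protein-coupled receptor genes only PTGIR, P2RY6 and LGR6 were members (3 genes). MRGPRX3, also a receptor of this kind, is not on that list.

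Metabolic enzymes gave 7 members. VNN1, the pantetheinase that frees cysteamine from a coenzyme A breakdown product, had no read in either untreated library and 197 and 254 with the drug, at least 128-fold higher against the floor. PLA2G2D, a secreted phospholipase, went from 3 and 2 to 82 and 138. KMO, which turns kynurenine into 3-hydroxykynurenine, had 3 and 3 reads against 69 and 86. The rest were the sulfotransferase SULT1C2, the medium-chain acyl-CoA synthetase ACSM5, the sphingolipid enzyme subunit SPTSSB and the thioredoxin-like PRXL2A, with 42 to 100 reads in treated SUM159. Of these 7, VNN1 was the sole gene without a read in untreated cells.

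Transcription and signalling gave 8 members. RCAN2, a calcineurin regulator, led with 0 and 3 reads untreated and 118 and 142 treated. RERG, an estrogen-regulated small GTPase, had 3 and 1 against 99 and 103. The transcription factors were ARNT2, a partner of bHLH-PAS proteins, MEOX1, a homeodomain factor of the somites, and NR5A2, the nuclear receptor LRH-1. MEOX1 had 0 and 1 reads untreated and 79 and 88 treated. RASD1, a dexamethasone-induced RAS protein, RANBP3L and GUCY1A2, a subunit of soluble guanylate cyclase, completed the group with 43 to 86 reads. The last 9 members were the muscle genes TRIM63, a ubiquitin ligase, and KY, the tubulin glutamylase TTLL6, and SPADH, FAM151A, TMEM171, DYDC2, LRMDA and C6orf58, whose roles are less described. SPADH had 0 and 0 reads against 75 and 130.

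The limits cut through a continuous range. The members nearest the upper limit were HHIPL1 with 44 and 40 reads, KEL with 40 and 61, and NFASC with 42 and 40. Just short of it stood FMO2 and PCDH15, each with 39 and 40, and TNFSF15 with 56 and 39. On the other side, 21 members had 3 reads in an untreated library, while PI3, IDO1 and POU2F2 had 4 in at least 1 and were left out with 194 or more reads in each treated library. Membership near the limits thus turned on single reads.

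The promoters of the members were read from RefSeq sequence (GRCh38.p14, 250 bases before to 50 after the start of each gene), in which 48 of the 69 were matched. The 21 without an entry included ADAM28, ARNT2, CST7, CX3CL1, HLA-DRA, HP, LBP, LRRC32, MEOX1, MRGPRX3, NCKAP1L, NEFL, P2RY6, PCDHGC5, PLA2G2D, PTGIR, RERG, TLR7, TMPRSS2 and VNN1. For 15 of the 48, among them PDZK1IP1, HLA-DQB1 and TRIM63, the RefSeq start lies more than 500 bases from the start of the gene in GENCODE, so the window may not be the promoter read in these cells. Motifs were searched as exact letters on both strands, and a match is a description of the sequence and not of a bound site. The letters TATAAA, the core of the TATA box that places the polymerase at tissue-specific and inducible genes, occurred in 22.9% of the matched members (11 of 48, and 9 of the 33 whose starts lie within 500 bases) and in 9.63% of all 15843 protein-coding promoters. Between 35 and 25 bases before the start, the usual place of the box, they began in 4 members (S100A9, IBSP, KMO and TRIM63, 8.33%) against 4.02% of all promoters. That window was chosen after the positions were seen. CpG dinucleotides were scarcer in the members. The ratio of observed to expected CpG had a median of 0.414 in the members and 0.763 in all promoters, and 58.3% of members (28 of 48) against 29.5% of all lay under 0.5. The members were chosen as silent without the drug, and all promoters include those of genes read there. Whether other silent genes have the same TATAAA and CpG values was not tested.

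Letters of inducible factors were rare in both sets. NF-kB letters (GGGACTTTC, GGGAATTTC, GGGGATTTC or GGGAATTCC) were found in S100A9 and KY, 4.17% of members, against 1.17% of all promoters. STAT letters (TTCCGGGAA or TTCCTGGAA) were found in PAPPA2 and STEAP4, again 4.17%, against 1.14%. IRF letters (TTTCACTTT or GAAACTGAA) were found in S100A8 and LGR6, against 1.15%. AP-1 letters (TGAGTCA) were in NR5A2 alone, 2.08% against 3.66%, and C/EBP letters (TTGCGCAA, TTGCATCA, TTGCACAA or TTGCATAA) in CPA3 alone, 2.08% against 2.13%. With at most 2 members each, these shares say little about the members as a set. None of the matches overlapped another within a member except that both strands of 1 stretch in PAMR1 held TATAAA. The sequences below are shown because each holds a searched motif within 100 bases of the start, written 5′ to 3′ on the strand of the gene and ending at the base before the start, with the motif in capitals. S100A9 is given over 250 bases, since its NF-kB letters lie 178 bases and its TATAAA 29 bases before the start.
S100A9 (chr1:153357604-153357853, plus strand): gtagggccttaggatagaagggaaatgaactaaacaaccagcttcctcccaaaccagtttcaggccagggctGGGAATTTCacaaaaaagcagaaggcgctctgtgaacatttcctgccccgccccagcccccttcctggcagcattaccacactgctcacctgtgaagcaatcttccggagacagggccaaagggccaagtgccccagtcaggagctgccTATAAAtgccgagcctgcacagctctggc
IBSP (chr4:87799454-87799553, plus strand, TATAAA on the other strand): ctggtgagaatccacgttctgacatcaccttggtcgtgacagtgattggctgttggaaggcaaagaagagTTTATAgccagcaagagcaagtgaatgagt
KMO (chr1:241532278-241532377, plus strand, TATAAA): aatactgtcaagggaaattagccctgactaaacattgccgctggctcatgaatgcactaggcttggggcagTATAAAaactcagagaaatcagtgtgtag
TRIM63 (chr1:26067631-26067730, minus strand, TATAAA, start 806 bases inside the GENCODE gene): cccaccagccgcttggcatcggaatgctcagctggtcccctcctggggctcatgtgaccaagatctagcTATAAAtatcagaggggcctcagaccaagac
STEAP4 (chr7:88306895-88306994, minus strand, STAT): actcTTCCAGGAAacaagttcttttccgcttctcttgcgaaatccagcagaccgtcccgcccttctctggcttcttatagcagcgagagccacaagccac
PAPPA2 (chr1:176463075-176463174, plus strand, STAT): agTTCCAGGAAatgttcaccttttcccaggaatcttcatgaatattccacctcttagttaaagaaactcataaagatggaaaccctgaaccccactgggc
CPA3 (chr3:148865196-148865295, plus strand, C/EBP): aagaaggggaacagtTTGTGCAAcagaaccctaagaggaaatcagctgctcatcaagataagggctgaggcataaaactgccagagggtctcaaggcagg
LGR6 (chr1:202193699-202193798, plus strand, IRF): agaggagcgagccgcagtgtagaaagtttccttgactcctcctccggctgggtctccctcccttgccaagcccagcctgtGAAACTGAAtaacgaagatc

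Some members lie close together in the genome. Within 1 Mb of each other were 7 pairs, among them S100A9 and S100A8, PRXL2A and DYDC2 at 39.8 kb, DISP3 and DRAXIN at 154 kb, and HLA-DRA and HLA-DQB1 at 214 kb. Chromosome 1 held 13 members. Some overlap an expressed gene on the other strand, such as KMO with OPN3 (902 and 1189 reads in treated SUM159) and HP with TXNL4B (242 and 314), and CLEC3B overlaps EXOSC7 on its own strand (447 and 634). The libraries were prepared with strand, but the use of strand in counting is not given in the sources used here, so the counts of such members could hold reads of the partner. These 3 partners had 331 to 640 reads in untreated SUM159, where KMO had 3 and 3, HP 0 and 0 and CLEC3B 1 and 2.

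A549 addresses whether the same genes lie silent in another line and whether the same drug moves them there. In untreated A549 the members split. Of the 69, 39 had 3 or fewer reads in both libraries, 14 had 40 or more in both, and 16 lay between. By the first limit 6333 protein-coding genes were silent in untreated A549, with the same symbols set aside. The summed level of the 69 members in untreated A549, 563 and 525 CPM, was above that of treated SUM159. LGR6 (mean 122 CPM) and PRXL2A (88.8) held the largest parts of that sum. In CPM, 13 members were higher in both untreated A549 libraries than in either treated SUM159 library. After treatment the sum in A549 was 634 and 653 with PD, 657 and 625 with IN, 757 and 741 with P+I and 729 and 720 with PF. Members with 40 or more reads in both libraries of the group numbered 16 with PF, 16 with PD, 17 with IN and 21 with P+I. Apart from the 39, no count over all genes was made beside these numbers, so they only describe the members.

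**Figure D3:**
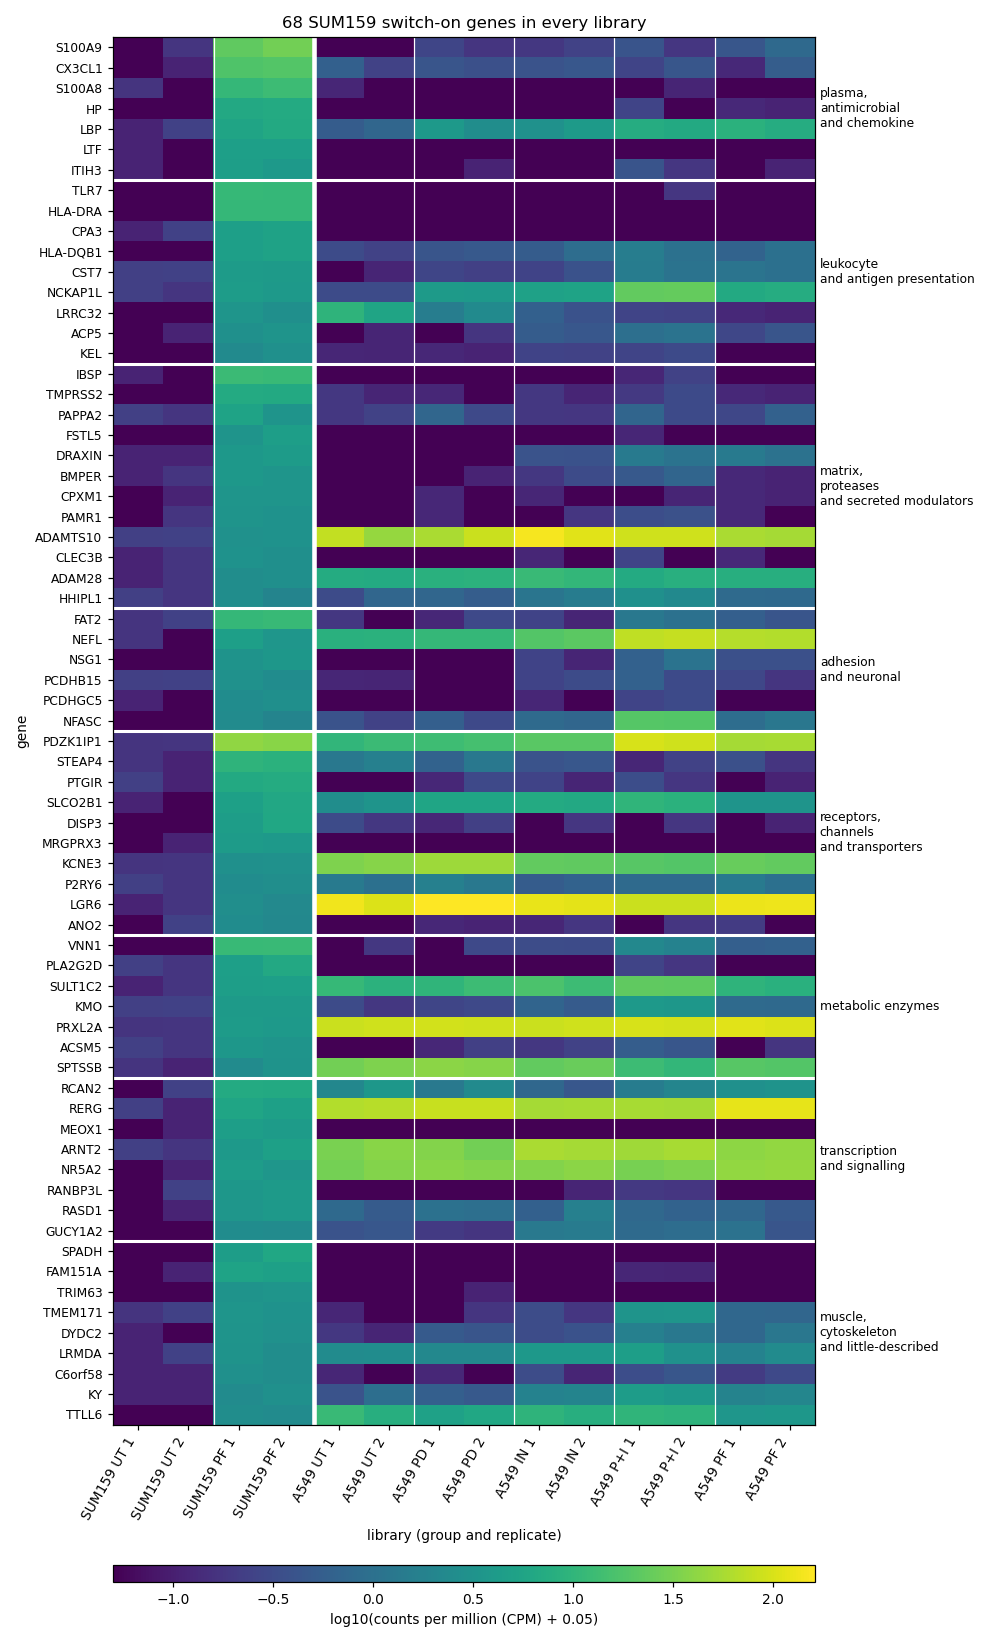
Level of 68 of the 69 genes (rows, in 8 role groups) in each of the 14 libraries (columns), as log10 of CPM plus 0.05. All rows turn from dark to green between the SUM159 UT and PF columns, while in A549 many rows stay dark in all 10 columns and others, such as LGR6, ADAMTS10 and PRXL2A, are bright in all of them.

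A block of members stayed dark in A549 under every treatment. In every A549 library, 19 members had 3 or fewer reads, and 6 of these (HLA-DRA, SPADH, CPA3, LTF, MEOX1 and MRGPRX3) had 0 in all 10. No count over all genes was made beside the 19 and the 6, so they only describe the members. In untreated A549 alone, 6333 protein-coding genes were silent. For these 6 a library's floor of 3 reads lies between 0.183 and 0.230 CPM. S100A8 had 1 and 0 reads in untreated A549 and 0 and 0 with PF, and TLR7 had 0 in each A549 library but 1, a P+I library with 2. The other 11 included IBSP, HP, PLA2G2D, FAM151A, FSTL5, RANBP3L, CPXM1, TRIM63, CLEC3B and ANO2. S100A9 had 0 and 0 reads untreated, 3 and 2 with PD, 2 and 3 with IN, 5 and 2 with P+I and 5 and 12 with PF, where SUM159 had reached 390 and 609. Given the same dose for the same time, A549 thus had at most 12 reads of the calprotectin genes and none of HLA-DRA and CPA3, while HLA-DQB1 had 8 and 15.

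Of the members read in untreated A549, LGR6 was the highest, with 2021 and 1595 reads, or 122 CPM against 2.43 in treated SUM159. It was followed by PRXL2A with 1268 and 1370 reads, RERG with 940 and 1031, ADAMTS10 with 1141 and 680, ARNT2 with 475 and 582 and KCNE3 with 499 and 552. These 6 stood 8.24 to 50.2 times higher in CPM in untreated A549 than in treated SUM159. The remaining 8 with 40 or more reads were NR5A2, SPTSSB, PDZK1IP1, SULT1C2, TTLL6, NEFL, LRRC32 and ADAM28. PDZK1IP1 alone of the 14 was lower in CPM in untreated A549 than in treated SUM159, at 0.280 of that level. Carry-over of A549 reads was gauged on 7 other genes that had over 100 CPM in every A549 library and 3 or fewer reads in untreated SUM159. Their reads in the treated SUM159 libraries summed to 62 and 59, of which FGL1 held 24 and 29 and CXCL5 17 and 14. LGR6 had 45 and 47 reads there. Whether carry-over brought reads of LGR6 or other members was not tested.

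Only 35 of the 69 members had enough reads in A549 to be tested with edgeR, and the other 34 were not tested. With PF-06873600 against untreated A549, 18 of the 69 members (26.1%) were higher and 5 (7.25%) lower at an adjusted p under 0.05, while 28.5% of all 15780 genes tested were higher and 27.8% lower. These shares have different bases, since the 69 include the members that were not tested. Of the 35 tested members, 51.4% were higher and 14.3% lower. The median log2 fold change of the 35 was 0.67, and that of all genes tested was -0.01. A member passes the filter more easily through a group where it is high, so this median and the shares of tested members describe those 35 genes and not the 69, and nothing is read from their distance to the values over all genes.

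LBP rose from 7 and 10 reads to 115 and 120 in A549 with PF, a log2 fold change of 3.80 ± 0.29 (SE, adjusted p = 5.26e-08). NEFL rose from 123 and 131 to 852 and 1036, a change of 2.92 ± 0.09 (adjusted p = 5.33e-12). NCKAP1L rose from 4 and 4 to 89 and 121, a change of 4.69 ± 0.26 (adjusted p = 1.43e-09). In each of these the groups did not overlap and the A549 level after PF exceeded that of treated SUM159. PDZK1IP1 rose from 151 and 187 to 709 and 913 reads, a change of 2.28 ± 0.10 (adjusted p = 2.35e-10). DRAXIN had no read in untreated A549 and 17 and 16 with PF, at least 11.2-fold higher against the floor. Others rose from single reads. CST7 went from 0 and 1 to 14 and 15 reads, a ratio of 29.5 with a counting interval of 4.89 to 1204, TMEM171 from 1 and 0 to 9 and 11, and DYDC2 from 2 and 1 to 9 and 19. HLA-DQB1 went from 4 and 3 to 8 and 15, a change of 1.70 ± 0.56 (adjusted p = 0.0178), while HLA-DRA stayed at 0. That call of HLA-DQB1 was lost with DESeq2 (adjusted p = 0.0965), without the untreated replicate 2 (0.0888) and without the PF replicate 2 (0.158). The remaining members called higher were ACP5, VNN1, FAT2, NFASC, KMO, KY, RERG, NR5A2 and PRXL2A, with log2 changes from 0.30 for PRXL2A to 2.91 for ACP5. Of all members called higher, only NEFL, PDZK1IP1, RERG, NR5A2 and PRXL2A had enough untreated reads to pass the filter there. The others, such as LBP, NCKAP1L and HLA-DQB1, passed through treated groups, which favoured a rise. Their calls and p-values are given as a description. The calls of VNN1, FAT2, KMO and ACP5 were lost when certain libraries were left out, with adjusted p up to 0.174 for ACP5 without the PF replicate 2.

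The 5 members that fell in A549 with PF had each been switched on in SUM159 by the same dose. LRRC32 fell from 140 and 83 reads to 1 and 1, a log2 fold change of -6.61 ± 0.53 (adjusted p = 8.96e-08). STEAP4 fell from 18 and 25 to 4 and 2, a change of -2.77 ± 0.54 (adjusted p = 0.00055). TTLL6 fell from 173 and 119 to 45 and 58, a change of -1.48 ± 0.21 (adjusted p = 2.6e-05). All 3 had treated libraries below both untreated ones. SPTSSB changed by -0.70 ± 0.11 and KCNE3 by -0.57 ± 0.08. In the class II list of A549, HLA-DMB, which loads peptides onto class II molecules, also fell, from 1738 and 1897 reads to 52 and 65 (log2 fold change -4.93 ± 0.10, adjusted p = 2.06e-13), and HLA-DMA by 1.29 on the log2 scale. Of the 4 class II genes outside the members that could be tested in A549, 2 were higher and 2 lower with PF.

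**Figure D4:**
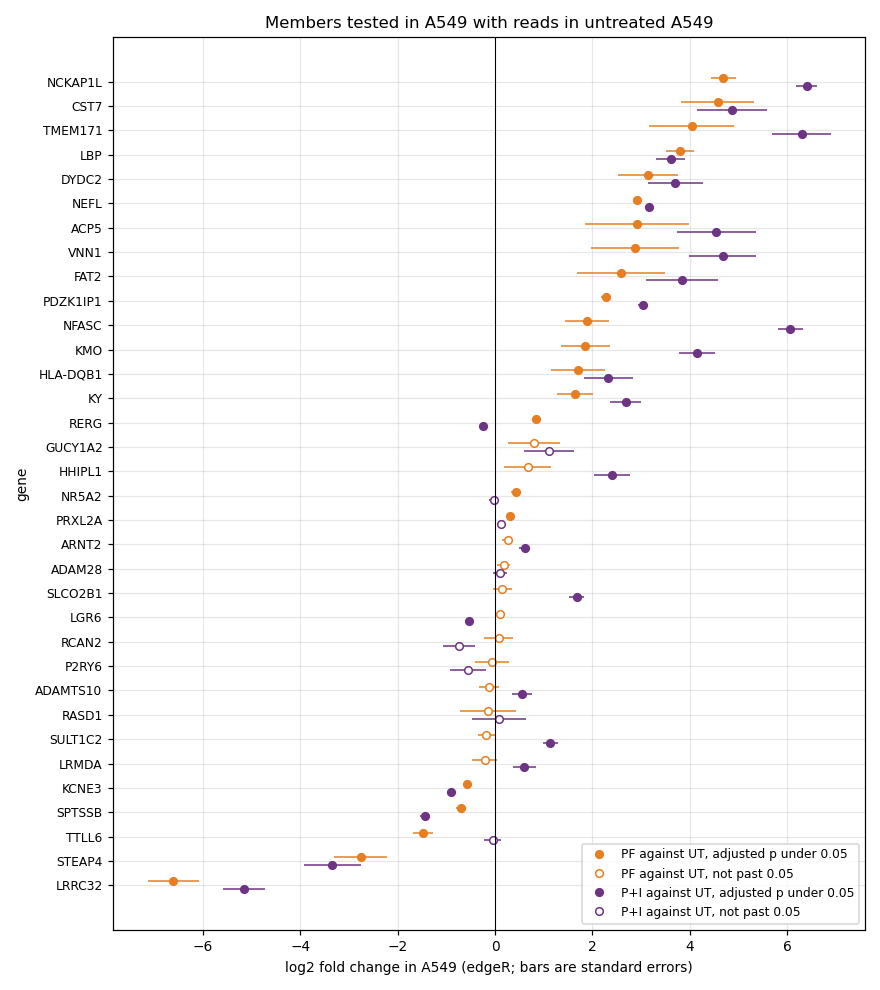
Log2 fold change in A549 (horizontal axis, bars are standard errors) of the 34 tested members with at least 1 read in untreated A549, for PF against UT (orange) and P+I against UT (purple), filled where the adjusted p was under 0.05. Both comparisons share the untreated libraries. NCKAP1L, CST7, TMEM171 and LBP lie furthest right with PF, and LRRC32 and STEAP4 furthest left in both.

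Palbociclib, indisulam and their combination were compared with the same untreated libraries as PF, so these results share controls. With PD, 7 members were higher (10.1% of the 69, against 8.30% of all genes tested) and 2 lower (against 7.40%). With IN, 17 were higher (24.6%, against 28.0%) and 7 lower (against 17.5%). With P+I, 21 were higher (30.4%, against 35.1%) and 6 lower (against 30.0%). Of the 35 tested members, 20% were higher with PD, 48.6% with IN and 60% with P+I. The bases differ here as they did for PF. For IN the balance over all genes depended on the scaling, with 61.6% of calls higher by total counts and 50.4% with TMM factors, which lowered the median of all genes by 0.08 on the log2 scale. For P+I the share of calls that were higher went from 53.9% to 47.6%, and for P+I against PD from 55.4% to 47.3%.

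NFASC was far higher with P+I than in the other A549 groups. It had 5 and 3 reads untreated, 7 and 4 with PD, 11 and 10 with IN, 267 and 285 with P+I and 11 and 19 with PF. The log2 fold change with P+I was 6.07 ± 0.26 (adjusted p = 5.77e-11), and it was 1.89 ± 0.46 with PF (adjusted p = 0.00262). NCKAP1L had 55 and 63 reads with PD, 74 and 82 with IN and 323 and 373 with P+I, and changed by 6.40 ± 0.21 with P+I (adjusted p = 2.86e-12). TMEM171 had 0 and 2 reads with PD, 4 and 2 with IN and 46 and 52 with P+I. In these 3 genes the P+I libraries were above those of every other A549 group, which also held for other members such as PDZK1IP1, NEFL and VNN1. PDZK1IP1 had 175 and 247 reads with PD, 299 and 305 with IN and 1399 and 1385 with P+I (log2 fold change 3.05 ± 0.10, adjusted p = 3.53e-12). NEFL had 148 and 178 with PD, 269 and 320 with IN and 1054 and 1223 with P+I (3.17 ± 0.09, adjusted p = 8.13e-13). LBP had 51 and 42 with PD, 43 and 61 with IN and 104 and 105 with P+I (3.61 ± 0.30, adjusted p = 6.77e-08). NFASC, NCKAP1L and LBP passed the filter only through treated groups, so their p-values here are a description. LRRC32 had 20 and 38 with PD, 8 and 5 with IN and 3 and 3 with P+I, a fall of 5.16 ± 0.44 with P+I (adjusted p = 9.75e-08). It thus fell in every treated group of A549.

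**Figure D5:**
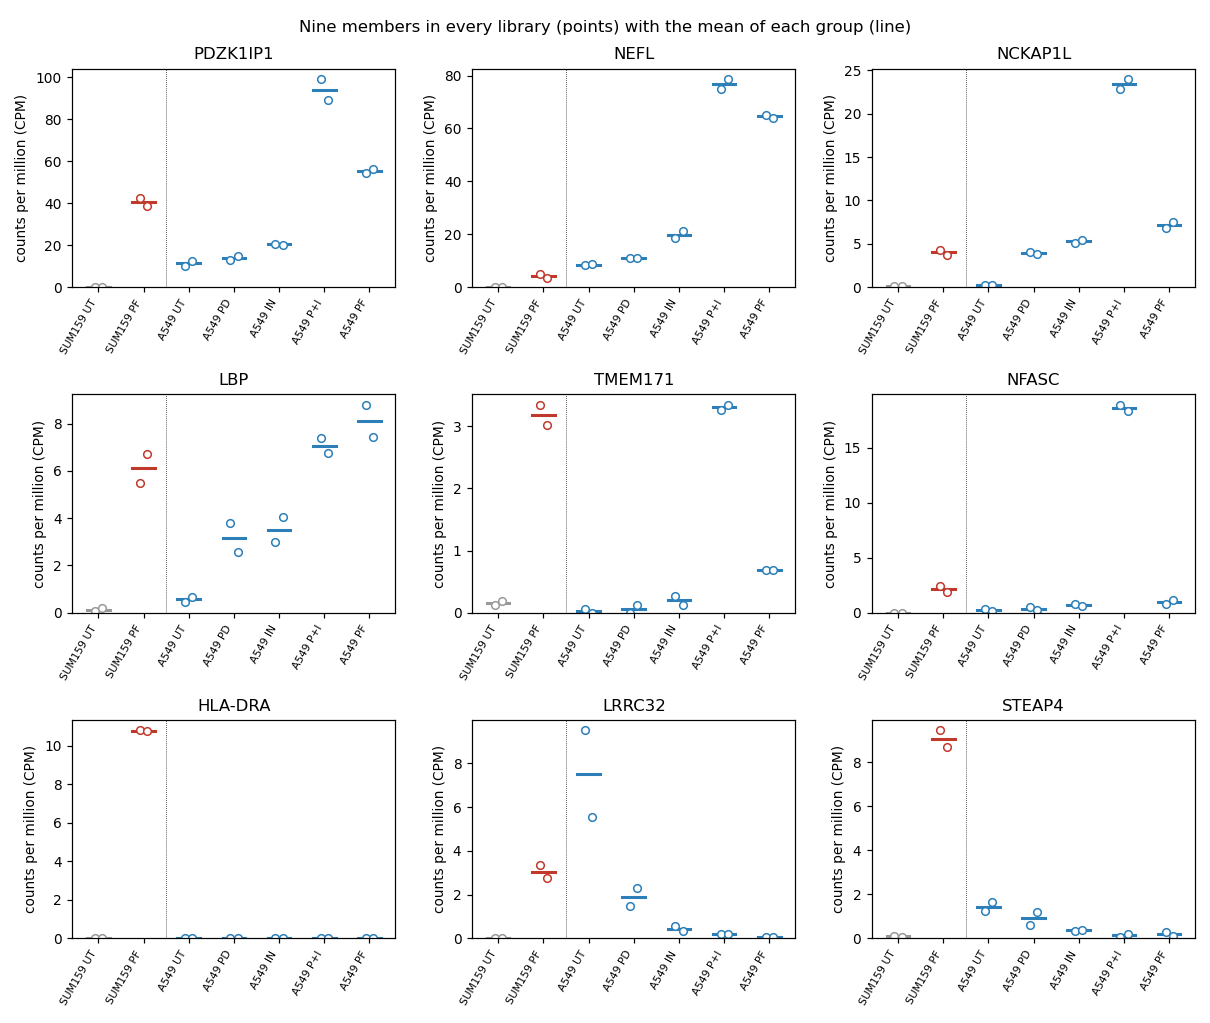
CPM (vertical axis, from 0, each panel with its own scale) of 9 members in the 7 groups, with each library as an open point and the group mean as a line. NFASC and TMEM171 are highest among A549 groups with P+I, HLA-DRA is at 0 in all A549 libraries, and LRRC32 and STEAP4 fall in A549 while they rise in SUM159.

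The combination was also set against each single drug. Against PD, 22 members were higher (31.9%, against 33.5% of all genes tested) and 6 lower (8.70%, against 26.9%). Against IN, 17 were higher (24.6%, against 22.0%) and 5 lower (7.25%, against 23.9%). Of the 35 tested members, 62.9% were higher than with PD and 48.6% higher than with IN. NFASC was higher in P+I by 5.63 ± 0.25 than with PD (adjusted p = 1.08e-10) and by 4.70 ± 0.22 than with IN (adjusted p = 5.58e-10). As it did not pass the filter through PD or IN, these p-values are a description too. For PDZK1IP1 the log2 differences to PD and IN were 2.74 ± 0.10 (adjusted p = 1.27e-11) and 2.21 ± 0.09 (adjusted p = 2.2e-10). NEFL differed by 2.81 ± 0.09 (adjusted p = 2.8e-12) and 1.95 ± 0.08 (adjusted p = 1.77e-10). For these 3 genes the combination was above both single drugs. SPTSSB was lower by 1.74 ± 0.11 than with PD and by 1.09 ± 0.12 than with IN, so its direction was the opposite.

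The limits of 3 and 40 reads were applied to A549 in the same way, with the same symbols set aside. Of 6333 protein-coding genes silent in untreated A549, 16 (0.253%) reached 40 reads in both PF libraries and none of them was a member (0 genes). With PD 0 genes (0%) did so, with IN 4 (0.0632%) and none a member, and with P+I 64 (1.01%), of which TMEM171 was the sole member. That is 1.45% of the 69 members and 1.56% of the 64 genes. As 39 members were silent in untreated A549, counts of 0 and 1 at shares of this size are no result about the members. Lower limits reached more of them. Of the 39, 8 (20.5%) had 4 or more reads in both PF libraries, against 4.89% of the 6333 silent genes. With PD these were 2 (5.13%, against 1.07%), with IN 4 (10.3%, against 4.97%) and with P+I 14 (35.9%, against 10.7%). At 10 or more reads there were 2 members with PF (5.13%, against 1.66%), 0 with PD (against 0.0790%), 0 with IN (against 1.44%) and 7 with P+I (17.9%, against 4.74%). These shares are given without a test.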

How the data were processed

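Total RNA of 14 libraries was sequenced after a strand-specific messenger RNA preparation. The authors aligned reads to GRCh38, with HISAT2 2.2.1 and HTSeq named in the submitters' processing notes, and deposited unnormalized read counts, with 1 table for each library and replicates kept apart. Each table has 60683 Ensembl gene identifiers. Symbols and hg38 coordinates of 60370 of them came from GENCODE release 44. Summary lines were left out, and reads without a gene or with several made up 7.65% to 10.4% of those assigned or so set aside. The members and the gene lists were chosen with earlier results of these data known, and the role groups were assigned after the members were found.

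Counts were scaled by the library total. For tests, genes were kept by filterByExpr (15780 in A549, 15055 in SUM159) and fitted with edgeR 4.0.16 in R 4.3.3 (glmQLFit and glmQLFTest, Benjamini-Hochberg adjustment, threshold 0.05), with all 10 A549 libraries in 1 model and the 4 SUM159 libraries in another. The fits were first checked on simulated counts. With 2 libraries a group, an exact permutation test cannot give a two-sided p under 0.33. A level of 0 reads was bounded by a floor of 3 reads over the group, and ratios of few reads were given exact 95% intervals. The summary lines of the tables give 0 reads marked as duplicates, reads carry no molecular identifiers, and intervals and floors cover counting error only.

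Genes were named by a rule that took the 15 members highest in treated SUM159, up to 3 members of each list with 2 or more, the 6 largest and 4 lowest called changes in A549 with PF and with P+I, the 6 highest in untreated A549, up to 5 of those at 0 there, members passing the same limits in A549, and the 3 nearest each limit. Other members were given by symbol in their role group, except 1 that is not reported here by name, and up to 3 other genes of a list by the size of change. Names beyond these are said in the text to have been chosen after their values were seen, or describe cell markers and overlapping genes. Promoters came from the RefSeq table of GRCh38.p14. The alternatives were TMM factors, DESeq2 1.42.0, no filter on low counts, the compared groups alone, the replicate number as a block, other read limits, counts scaled before the limits, the 250 bases before the start alone, and leaving out 1 library at a time. A block that crossed the palbociclib numbers was chosen after seeing the data. Tables, promoters and figures were handled with pandas 2.3.3, numpy 2.4.6, scipy 1.17.1 and matplotlib 3.10.9 in Python 3.11.15.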

Additional observations from a re-analysis of the deposited data

Results flagged for a closer look

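With PF-06873600 at the same dose and time, 5 members went from silence to 42 or more reads in both SUM159 libraries and fell in A549. Their log2 fold changes in A549 against untreated cells were -6.61 for LRRC32, -2.77 for STEAP4, -1.48 for TTLL6, -0.70 for SPTSSB and -0.57 for KCNE3. In SUM159 both treated libraries moved up and in A549 both moved down for each of the 5. The difference between the lines was not tested, since the rise in SUM159 was part of how the members were chosen. LRRC32 had 57 and 58 reads in treated SUM159 and 1 and 1 in treated A549, although untreated A549 had 140 and 83. No group has more than 2 libraries, so no library was screened for values apart from its group.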

How the results depend on the processing

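The number of members followed the read limits. It was 34 with 1 or fewer reads untreated, 121 with 5 or fewer, 158 with 20 or more reads treated, 22 with 80 or more, and 71 to 99 when 1 library was left out. In A549, the members that met limits of 5 and 20 reads numbered 1 each with PF, PD and IN and 5 with P+I, and limits of 1 and 80 left 0 with P+I. When a library was left out they numbered 1 to 3 with P+I (3 without the untreated replicate 1) and 0 with PF, PD and IN. Leaving out a library also moved the members lower with IN to 4 to 8 (4 without IN replicate 1), with PD to 1 to 2 (1 without PD replicate 1) and in P+I against IN to 3 to 4 (3 without P+I replicate 2). DESeq2 called 10 members higher with IN and 3 lower in P+I against IN, and over all genes 2742 higher with IN and 1584 with PD, 617 of them lower. With the compared groups alone, PD gave 5 members (4 higher, 1 lower) and 949 genes (543 higher, 406 lower). Over all genes PD gave 1301 to 3331 calls without 1 library (779 to 1729 higher and 522 to 1602 lower), with 1472 without PD replicate 1 and 1301 without PD replicate 2. The causes were not tested, beyond the fewer libraries of these fits.

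Of 1196 refitted log2 fold changes of members called in A549, 0 reversed and 98 lost the threshold, 22 of these with DESeq2. In the 250 bases before the start alone, 3.17% of all promoters held AP-1, 1.91% C/EBP, 0.972% STAT and 0.903% IRF letters.

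The labels do not say that a replicate number marks a shared batch. Deviations of same-numbered libraries correlated at 0.271 for IN and -0.303 for PD against untreated cells, and between -0.0205 and 0.068 in the other comparisons. The replicate block gave 23 members called with PF, 8 with PD, 23 with IN and 28 with P+I, and moved no count by over 1.5 times. With crossed palbociclib numbers, PD gave 10 members and 3023 genes. Too few reads kept 34 members from being tested in A549, which limits what this depth can show.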
